A study of Apis mellifera with 18 samples.

Results

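The antimicrobial peptide genes of the honey bee (Apis mellifera) measured in these brain libraries are hymenoptaecin (LOC406142), abaecin (LOC406144) and the defensins Def1 and Def2. They were taken by gene name, without regard to their values, and gave 4 of the 9939 genes listed. 1 of the 6760 lncRNA transcripts, TCONS_00085831, is also listed under the name Def2 and is described with it. On the assembly Amel_HAv3.1, LOC406142 lies on linkage group 6 from 2367078 to 2368717 and Def1 on the same group from 8673495 to 8675023. LOC406144 lies on linkage group 10 from 12267100 to 12267965, and Def2 on linkage group 16 from 5139659 to 5140578.

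Newly emerged bees were caged and received 2 mL of a 50% sucrose solution. In the dinotefuran groups (DT_1d, DT_5d and DT_10d) the solution held 0.01 mg/L of dinotefuran, a neonicotinoid that activates nicotinic acetylcholine receptors, and in the control groups (C_1d, C_5d and C_10d) it held none. Brains were taken at 1, 5 and 10 d, and each of the 6 groups had 3 libraries, every library from pooled brains. The labels number the libraries of a group but do not say that they came from separate cages or colonies, so p-values measure the spread between libraries. Values are FPKM, fragments per length of transcript and per number of mapped fragments. FPKM is a level per length, so levels can be compared between genes. In bulk tissue, fewer cells that express a gene and less RNA per cell cannot be told apart.

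In insects, antimicrobial peptides are small secreted proteins that damage the envelope of bacteria and fungi or block processes inside the microbial cell. Pattern recognition proteins detect microbial cell walls and activate the Toll and Imd pathways, whose NF-kB factors switch on the peptide genes, mainly in fat body and haemocytes. Abaecin is a proline-rich peptide and hymenoptaecin a glycine-rich one, and both are known as inducible after bacterial challenge. Defensins are held together by disulfide bonds. Def1 is also known as royalisin, a component of royal jelly made in the glands of the head.

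The libraries differed in a factor shared by most genes. The median-ratio scaling factors lay between 0.539 (DT_1d replicate 1) and 1.81 (C_5d replicate 3). The median log2 fold change of the 9352 genes tested was -0.67 in DT_1d against C_1d, -0.73 in DT_5d against C_5d, 0.29 in DT_10d against C_10d and 1.20 in DT_10d against DT_1d. Each comparison is therefore given for the deposited values and for values divided by these factors, called scaled. In C_1d replicate 1 the scaling factor was 1.65, against 0.830 and 0.770 in replicates 2 and 3, and of 9 gland markers described further on 6 were lower and 3 higher than in both other C_1d libraries. How many of all genes lay below or above both others in this library was not counted. Results that rest on this library are also given without it. By fold change, 7.97% of the genes tested were lower in DT_10d than in DT_1d, and 5.61% were lower in DT_10d than in DT_5d. Where groups are said below not to overlap, the share of all genes without overlap was not counted.

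Hymenoptaecin covered the widest range of the 3 abundant genes. In the 1 d bees it had 729.9, 1059.7 and 1548 FPKM in DT_1d and 16779.5, 1858 and 2401 FPKM in C_1d. In the 5 d bees it had 66.4, 1202 and 187 FPKM in DT_5d and 1682, 2729.8 and 4461 FPKM in C_5d. In the 10 d bees it had 14028, 4649 and 5731 FPKM in DT_10d and 26523, 10278 and 19067 FPKM in C_10d. The dinotefuran libraries lay below the control libraries of the same age with no overlap at 1 and 5 d, while at 10 d DT_10d replicate 1 exceeded C_10d replicate 2. Most genes were lower in these deposited values too, by fold change 95.1% in DT_1d against C_1d and 93.4% in DT_5d against C_5d. Libraries of 1 group differed by up to 18.1-fold (DT_5d) and 9.03-fold (C_1d). The lowest value of all was in DT_5d replicate 1 and the highest in C_10d replicate 1.

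Abaecin had its highest group means at 10 d as well, and its libraries spread less than those of hymenoptaecin in every group but C_10d, at 2.72-fold against 2.58-fold. It had 901, 563 and 977 FPKM in DT_1d and 4806, 1090.05 and 1510.3 FPKM in C_1d. At 5 d its level was 649, 1571 and 665 FPKM in DT_5d and 2229, 2956 and 2136 FPKM in C_5d. At 10 d the values were 10193, 5228 and 6167 FPKM in DT_10d and 11793, 4342 and 10914 FPKM in C_10d. The groups of 1 age did not overlap at 1 and 5 d, with DT below C, and overlapped at 10 d. With values divided by the scaling factors they overlapped at 1 d (880.2 to 1673 in DT_1d, 1314 to 2912 in C_1d), at 5 d (806 to 2855 in DT_5d, 1179 to 3099.5 in C_5d) and at 10 d. Every DT_10d library was above every DT_1d and DT_5d library, and every C_10d library was above every C_5d library. C_1d replicate 1 again stood above the other C_1d libraries, and it also exceeded C_10d replicate 2.

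Def1 was abundant in every library and varied least. Its level was 7914, 5832 and 6972 FPKM in DT_1d and 4648, 6013 and 7317 FPKM in C_1d. It was 4056, 2916 and 2745 FPKM in DT_5d and 4325, 5492 and 6476 FPKM in C_5d. At 10 d it was 4276, 2222 and 2617 FPKM in DT_10d and 4645, 3123 and 4976 FPKM in C_10d. The groups of 1 age overlapped at 1 and 10 d, whereas at 5 d all dinotefuran libraries lay below all control libraries. Both DT_5d and DT_10d lay wholly below DT_1d. The widest spread within a group was 1.92-fold (DT_10d).

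Def2, the second defensin of the species, was by far the least abundant of the 4 genes. It had 0.246, 0.183 and 0.0609 FPKM in DT_1d and 0.604, 0.245 and 0.153 FPKM in C_1d. At 5 d it had 0.439, 1.65 and 0.566 FPKM in DT_5d and 0.199, 0.247 and 0.0984 FPKM in C_5d. At 10 d it had 2.51, 4.95 and 1.68 FPKM in DT_10d and 0.562, 0.516 and 0.974 FPKM in C_10d. Dinotefuran libraries were above control libraries without overlap at 5 and 10 d and overlapped them at 1 d. Def1 exceeded Def2 by between 449 times (DT_10d replicate 2) and 114473 times (DT_1d replicate 3). The paper lists the reads of each library, but the number assigned to Def2 is not given, and its counting error was not calculated. The largest of these ratios rests on 0.0609 FPKM of Def2, its lowest level of all.

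The transcript TCONS_00085831 listed under Def2 moved with the gene. The lncRNA values deposited for DT_1d replicate 1 are a copy of those of DT_10d replicate 1 and were left out, which leaves 17 libraries. In these the transcript stood at between 0.373 and 1 times the level of Def2 (median 0.625). It had 0.0785 and 0.0609 FPKM in DT_1d, 0.302, 0.920 and 0.388 FPKM in DT_5d and 1.54, 2.73 and 1.09 FPKM in DT_10d. The control values were 0.225, 0.103 and 0.0956 FPKM in C_1d, 0.127, 0.138 and 0.0375 FPKM in C_5d and 0.461, 0.357 and 0.675 FPKM in C_10d. Whether the value of the gene includes the transcript is not given in the sources used here. In DT_1d replicate 3 the values of gene and transcript were equal, at 0.0609 FPKM, and in no library used was the transcript above the gene. The transcript and the gene are therefore not independent measures, and their moving together is not a second observation. With the transcript subtracted, Def2 was at 0.137, 0.727 and 0.178 FPKM in DT_5d, against 0.0726, 0.109 and 0.0609 FPKM in C_5d. The remainder at 10 d was 0.969, 2.22 and 0.581 FPKM in DT_10d, against 0.101, 0.159 and 0.298 FPKM in C_10d. The groups still did not overlap at either age.

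**Figure D1:**
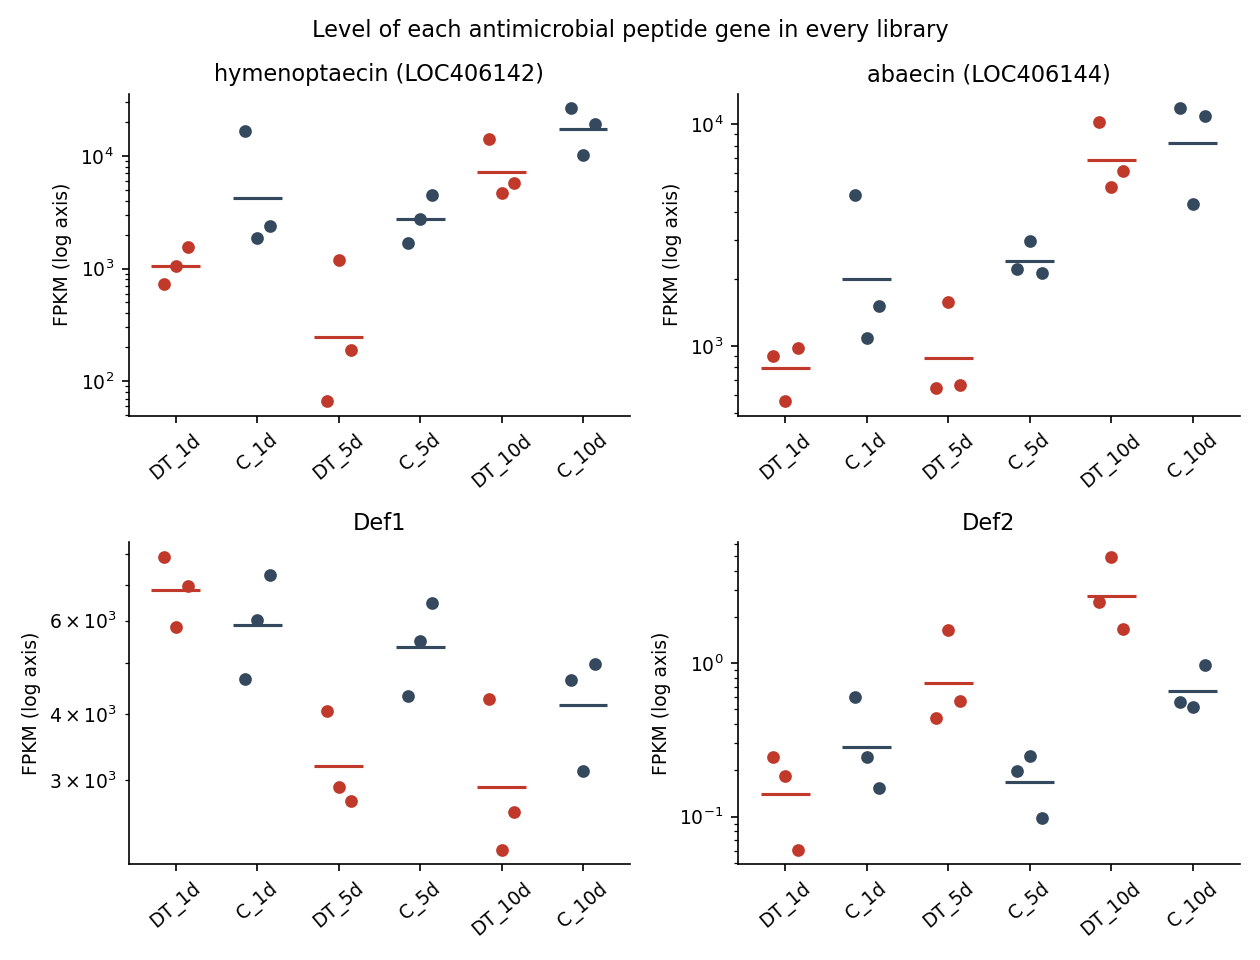
Level of each gene in every library, in FPKM on a log axis that differs between panels. Points are libraries (dinotefuran DT red, control C dark), ordered by replicate number within a group, and lines are geometric group means. The group means of hymenoptaecin and abaecin are highest at 10 d, Def1 stays between 2222 and 7914 FPKM, and Def2 is highest in DT_10d, from 1.68 to 4.95 FPKM.

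The first question of the design is how the dinotefuran groups differ from the controls of the same age. None of the 4 genes passed the threshold (limma with Benjamini-Hochberg adjustment over all genes and lncRNA transcripts, adjusted p under 0.05 and a log2 fold change beyond 1) in DT_1d against C_1d, DT_5d against C_5d or DT_10d against C_10d, although 2, 4 and 1 of them had an unadjusted p under 0.05. Of all 13730 features tested, 0.0146%, 0.189% and 0.524% passed. With scaled values again none of the 4 passed, with 0, 2 and 1 under an unadjusted p of 0.05, against a background of 0.0583%, 0.626% and 0.699%. Over all ages together, 0 of 13730 features and hence 0% passed with the deposited values and 0.124% with the scaled values, again with none of the 4 genes, of which 3 (deposited) and 2 (scaled) had an unadjusted p under 0.05.

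Hymenoptaecin had a lower level in the dinotefuran group at each age. Its log2 fold change was -1.99 ± 0.85 (SE) in DT_1d against C_1d, -3.47 ± 0.85 in DT_5d against C_5d and -1.27 ± 0.85 in DT_10d against C_10d. After scaling the values were -1.29, -2.70 and -1.57, so the direction was the same with both. Scaled, the groups did not overlap at 1 and 10 d and overlapped at 5 d, where DT_5d replicate 2 exceeded C_5d replicate 1. The limma adjusted p was 0.0641 at 5 d and 0.142 after scaling. Its fold change in DT_5d against C_5d ranked 3 from the lowest among the 9352 genes tested. Over all ages the log2 fold change was -2.24 ± 0.50 (limma adjusted p = 0.0815), and the exact permutation test of the treatment labels within each age gave p = 0.00075 with the deposited and p = 0.00175 with the scaled values, where 0.00025 is the smallest p of that test.

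At 1 d the difference hung largely on 1 library. Without C_1d replicate 1, the log2 fold change of hymenoptaecin in DT_1d against C_1d was -0.99, and that of abaecin -0.70, against -1.33 ± 0.50 with it. Scaled, these values were -0.64 and -0.34 without it. At 5 d, leaving out DT_5d replicate 2, the highest library of its group, moved the log2 fold change of hymenoptaecin to -4.61, with a limma adjusted p of 0.0363, where 0.0364% of all features passed.

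Abaecin was also lower in the dinotefuran groups, but to a smaller extent, and its difference was smaller after scaling at 1 and 5 d and over all ages. Its log2 fold change was -1.46 ± 0.50 in DT_5d against C_5d (limma adjusted p = 0.0700) and -0.26 ± 0.50 in DT_10d against C_10d. Scaled, the values were -0.63 at 1 d, -0.68 at 5 d and -0.56 at 10 d. Quantile normalization turned the 10 d value to 0.49. Over all ages the difference was -1.02 ± 0.30 with the deposited values (exact permutation p = 0.009) and -0.62 ± 0.34 with the scaled values (exact permutation p = 0.0515).

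For Def1 the direction of the treatment difference at 5 d and over all ages changed with the scaling. The log2 fold change was 0.22 ± 0.31 at 1 d, -0.75 ± 0.31 at 5 d and -0.51 ± 0.31 at 10 d with the deposited values. With scaled values it was 0.92 at 1 d, 0.03 at 5 d and -0.82 at 10 d. The separation of DT_5d from C_5d in the deposited values was thus absent after scaling, where the groups overlapped. At 10 d the scaled Def1 level was between 1459.8 and 2928 in DT_10d and between 3296 and 3599 in C_10d, without overlap. Over all ages the difference was -0.35 ± 0.20 with the deposited values (exact permutation p = 0.0838) and 0.04 ± 0.42 with the scaled values (exact permutation p = 0.895). Without C_1d replicate 1 these values were -0.44 ± 0.18 and -0.17 ± 0.30, so the sign over all ages did not turn. The 1 d value was then 0.05 with the deposited and 0.40 with the scaled values.

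Def2 differed in the opposite direction, with more in the dinotefuran groups from 5 d on. Its log2 fold change was -0.65 ± 0.52 in DT_1d against C_1d, 1.64 ± 0.52 in DT_5d against C_5d and 1.91 ± 0.52 in DT_10d against C_10d, on the log2(FPKM + 0.1) scale, which understates changes of a gene this low. Scaled values gave -0.16, 2.21 and 1.60. The limma adjusted p was 0.0660 at 5 d and 0.117 at 10 d (0.0640 and 0.223 scaled). Counted from the highest of the 9352 genes, its fold change ranked 17 at 5 d and 27 at 10 d. Over all ages the difference of Def2 was 0.97 ± 0.38 with the deposited values (limma adjusted p = 0.266, exact permutation p = 0.039). With the scaled values it was 1.22 ± 0.39 (limma adjusted p = 0.144, exact permutation p = 0.009). The transcript TCONS_00085831 had log2 fold changes of 1.58 ± 0.44 at 5 d and 1.60 ± 0.44 at 10 d, and its scaled difference at 5 d, 2.07 ± 0.44, passed the threshold (limma adjusted p = 0.0448).

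The calls at 5 d in the deposited values changed with the set of features fitted, for these genes as for many others. Fitted and adjusted over genes without lncRNA transcripts, 1470 of 9352 genes or 15.7% passed, 1454 of them lower, in values in which 93.4% of all genes were lower in DT_5d. In that fit hymenoptaecin (limma adjusted p = 0.0386) and abaecin (limma adjusted p = 0.0470) were called lower and Def2 (limma adjusted p = 0.0414) higher in DT_5d than in C_5d. With scaled values, adjusted over all features, the limma adjusted p was 0.142 for hymenoptaecin, 0.579 for abaecin and 0.0640 for Def2.

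Whether the treatment difference itself changed between 1 and 10 d was tested as an interaction, in which 0 of the 4 genes passed, with 1 of them, Def2, at an unadjusted p under 0.05. The background was 0.124% of all features, and 0.269% with scaled values, where again only Def2 was under an unadjusted p of 0.05. The interaction was 2.57 ± 0.74 for Def2 on the log2 scale (limma adjusted p = 0.150) and 1.75 ± 0.79 with scaled values. For hymenoptaecin it was 0.72 ± 1.20 with the deposited and -0.28 ± 1.34 with the scaled values, so its sign turned with the scaling.

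**Figure D2:**
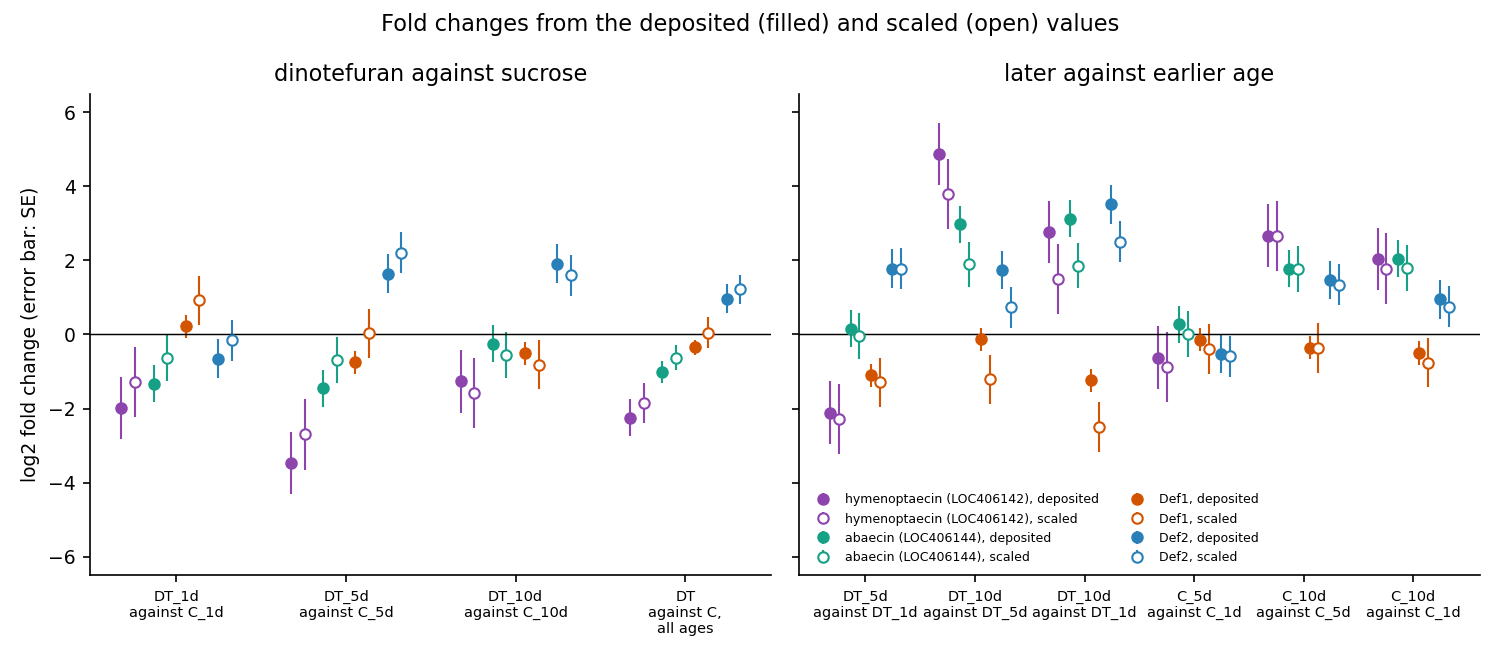
Log2 fold changes of the 4 genes with their standard errors, for dinotefuran against control (left) and later against earlier age (right). Filled points are from deposited, open points from scaled values. Hymenoptaecin lies below 0 in every comparison of treatment, and Def2 lies above 0 at 5 d (1.64) and 10 d (1.91).

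The second question is how the genes change over the first days of adult life. In DT_10d against DT_1d all 4 genes passed the threshold, 3 higher and 1 lower, where 54.3% of all features passed. With scaled values 3 of the 4 passed, against 14.1% of all features. In DT_10d against DT_5d, 3 of the 4 passed with the deposited values (42.1% of all features) and 1 of the 4, hymenoptaecin, with scaled values (3.83%). None passed in DT_5d against DT_1d, where 1.17% of the features passed with the deposited and 4.47% with the scaled values, and where 3 and 2 of the 4 genes had an unadjusted p under 0.05.

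Among the controls no gene passed between any 2 ages. The background was 0.0146% in C_5d against C_1d, 0.211% in C_10d against C_5d and 0.51% in C_10d against C_1d, and with scaled values 0.218%, 0.284% and 0.954%. An unadjusted p under 0.05 was found for 0, 3 and 2 of the 4 genes with the deposited values and for 0, 3 and 1 with the scaled values. Whether the change with age differed between dinotefuran and control bees was tested only between 1 and 10 d, by the interaction above.

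Abaecin rose in DT_10d against DT_1d under both sets of values. Its log2 fold change there was 3.12 ± 0.50 (limma adjusted p = 0.000611), and 1.86 ± 0.61 scaled (limma adjusted p = 0.0331). In DT_10d against DT_5d it was 2.97 ± 0.50 (limma adjusted p = 0.00343), and 1.89 ± 0.61 scaled, which did not pass (limma adjusted p = 0.0690). In C_10d against C_1d it was 2.05 ± 0.50 (limma adjusted p = 0.0760) and 1.79 ± 0.61 scaled. Without C_1d replicate 1 abaecin passed in this comparison, with 2.68 (limma adjusted p = 0.000756), and with 2.07 scaled (limma adjusted p = 0.0253), where 12.6% of all features passed, and 8.57% scaled. The exact permutation test of 10 d against 1 d within treatment, scaled, gave p = 0.005 for abaecin, the smallest p it can give. Scaled abaecin was higher in all 6 libraries of 10 d than in any 1 d library of the same treatment. By this exact permutation test, scaled, hymenoptaecin and Def2 also had p = 0.005, and both were higher without overlap within each treatment. For Def1, which was lower at 10 d, the exact permutation test, scaled, gave p = 0.02. The share of all genes reaching these p-values was not counted.

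Hymenoptaecin rose between 5 and 10 d in the dinotefuran groups, with a log2 fold change of 4.87 ± 0.85 in DT_10d against DT_5d (limma adjusted p = 0.00404) and 3.79 ± 0.95 scaled (limma adjusted p = 0.0274). This fold change ranked 2 from the highest of the 9352 genes. In C_10d against C_5d the log2 fold change was 2.66 ± 0.85 (limma adjusted p = 0.515), which ranked 3 from the highest, and 2.66 ± 0.95 scaled. Between 1 and 5 d its level was lower in DT_5d than in DT_1d by a log2 fold change of -2.11 ± 0.85, with overlapping groups. In DT_10d against DT_1d the log2 fold change was 2.76 ± 0.85 (limma adjusted p = 0.0101), and 1.495 ± 0.95 scaled (limma adjusted p = 0.249). Without C_1d replicate 1, hymenoptaecin also passed in C_10d against C_1d, with 3.04 (limma adjusted p = 0.0214), but not when also scaled, with 2.43 (limma adjusted p = 0.0970).

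Def1 was the gene that fell. In DT_10d against DT_1d its log2 fold change was -1.23 ± 0.31 (limma adjusted p = 0.00359), and -2.50 ± 0.67 scaled (limma adjusted p = 0.0113). With quantile normalization, under which 11.1% of all features passed, it was -0.56 and did not pass. The deposited levels separated already in DT_5d against DT_1d, at -1.10 ± 0.31 (limma adjusted p = 0.107). In C_10d against C_1d the log2 fold change was -0.50 ± 0.31, and -0.76 ± 0.67 scaled, and the groups overlapped in both. The overlap came from C_1d replicate 1. Without it the scaled levels were 3296 to 3599 in C_10d, against 7246 and 9507 in C_1d, and the log2 fold change was -0.67 (limma adjusted p = 0.142), and -1.28 scaled (limma adjusted p = 0.0779). Quantile normalization turned the value over all libraries to 0.13.

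Def2 rose in DT_10d against DT_1d, with a log2 fold change of 3.51 ± 0.52 (limma adjusted p = 0.000372) and 2.50 ± 0.56 scaled (limma adjusted p = 0.00392). Its fold change ranked 31 from the highest of the 9352 genes with the deposited values and 28 with the scaled values. In DT_10d against DT_5d it was 1.74 ± 0.52 (limma adjusted p = 0.0144), which was 0.73 ± 0.56 and did not pass after scaling. TCONS_00085831 rose by a log2 fold change of 3.38 ± 0.49 in DT_10d against DT_1d (limma adjusted p = 0.000372). With scaled values it also passed in DT_5d against DT_1d, at 1.95 ± 0.49 (limma adjusted p = 0.0274), where Def2 had 1.77 ± 0.56 (limma adjusted p = 0.0643). Def2 did not pass among the controls, but its group mean was also highest at 10 d there. In C_10d against C_5d its log2 fold change was 1.47 ± 0.52 (limma adjusted p = 0.699), without overlap and ranked 28 from the highest of the 9352 genes, and 1.34 ± 0.56 scaled. In C_10d against C_1d it was 0.94 ± 0.52 (limma adjusted p = 0.590), with overlap, and the scaled levels, 0.435 to 0.656 in C_10d and 0.199 to 0.366 in C_1d, did not overlap. Without C_1d replicate 1 the value was 1.36 (limma adjusted p = 0.0873), and TCONS_00085831 passed at 1.55 (limma adjusted p = 0.0350), which it did not when also scaled, at 1.14 (limma adjusted p = 0.148).

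Ratios between the genes inside 1 library do not depend on the scaling of that library. Abaecin stood at 0.114, 0.0966 and 0.140 times the level of Def1 in DT_1d and at 1.03, 0.181 and 0.206 times in C_1d. The ratio was 0.160, 0.539 and 0.242 in DT_5d and 0.515, 0.538 and 0.330 in C_5d. At 10 d it was 2.38, 2.35 and 2.36 in DT_10d and 2.54, 1.39 and 2.19 in C_10d. In all 6 libraries of 10 d abaecin was thus above Def1, as it was in no younger library except C_1d replicate 1. The ratio lay between 2.35 and 2.38 in the 3 DT_10d libraries, whereas the levels themselves differed by up to 1.95-fold (abaecin) and 1.92-fold (Def1).

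Hymenoptaecin stood at 0.810, 1.88 and 1.58 times the level of abaecin in DT_1d and at 3.49, 1.70 and 1.59 times in C_1d. The ratio was 0.102, 0.765 and 0.282 in DT_5d and 0.754, 0.924 and 2.09 in C_5d. At 10 d it was 1.38, 0.889 and 0.929 in DT_10d and 2.25, 2.37 and 1.75 in C_10d, without overlap. Per 1000 FPKM of abaecin, Def2 had 0.676, 1.05 and 0.850 FPKM in DT_5d, against 0.0894, 0.0836 and 0.0461 FPKM in C_5d. At 10 d this ratio was 0.246, 0.946 and 0.272 in DT_10d and 0.0477, 0.119 and 0.0892 in C_10d, and at 1 d the groups overlapped.

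**Figure D3:**
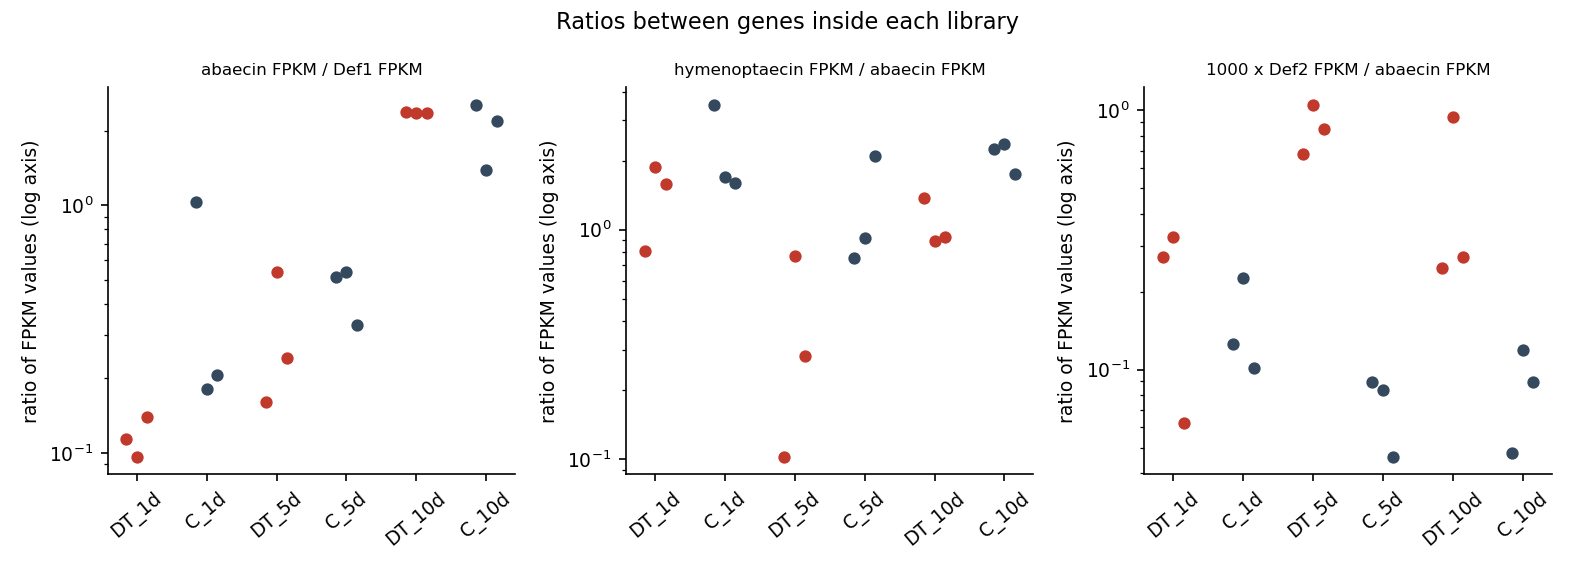
Ratios of FPKM values inside each library, on log axes: abaecin over Def1, hymenoptaecin over abaecin, and Def2 per 1000 FPKM of abaecin. Points are libraries, dinotefuran (DT) red and control (C) dark. Abaecin over Def1 lies between 1.39 and 2.54 in all libraries of 10 d, and the Def2 ratio separates DT from C at 5 and 10 d.

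The third question is whether the genes are high in the same libraries. Hymenoptaecin and abaecin were. In 5 of the 6 groups the same library held the highest deposited value of both, the exception being C_5d. Over the 18 libraries their log2 levels had Pearson's r = 0.89 and Spearman's rho = 0.93 (permutation p = 1e-05 each, the smallest these permutations can give), and r = 0.84 with scaled values (permutation p = 2e-05). Benjamini-Hochberg adjustment over the 37404 relations of the 4 genes with every gene tested gave 0.000859 and, scaled, 0.000796. By its r with hymenoptaecin, abaecin ranked 3 among 9351 genes, and 4 with scaled values. By its r with abaecin, hymenoptaecin ranked 27, and 11 with scaled values.

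The groups differ in age and treatment, so the pooled r joins differences between groups and within them. For the deviations of the libraries from their group means r was 0.83 (permutation within groups, p = 0.00382), and 0.78 with scaled values (p = 0.00631 by the same permutation). Within an age, r was 0.95 at 1 d, 0.94 at 5 d and 0.80 at 10 d, over 6 libraries each. Without the libraries farthest from the median, DT_5d replicates 1 and 3, r was 0.91. Without C_1d replicate 1 it was 0.89, and 0.74 for the deviations.

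Def1 and Def2 ran against each other in the deposited values. They had r = -0.78 and rho = -0.78 (permutation p = 0.00015 and 0.00024), and Benjamini-Hochberg adjustment over all relations gave 0.00279. With scaled values r was -0.52 (permutation p = 0.0277, adjusted 0.121). For the deviations from group means r was -0.35 (permutation within groups, p = 0.255), and 0.0897 scaled (p = 0.723 by the same permutation). Within an age r was -0.69 at 1 d, -0.85 at 5 d and -0.54 at 10 d, and -0.16, 0.37 and -0.79 scaled. Leaving out DT_10d replicates 2 and 3, the farthest from the median of Def1, gave r = -0.66. By deposited level, the same library was highest for both in 2 of 6 groups. Def2 shared its highest library, also by deposited level, with abaecin in 3 of 6 groups and with hymenoptaecin in 2, and Def1 shared it with abaecin in 1 and with hymenoptaecin in 2.

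Def1 and hymenoptaecin had r = -0.02 (permutation p = 0.949) and rho = -0.13, and -0.28 and -0.50 scaled. Within an age their r was -0.78 at 1 d, 0.59 at 5 d and 0.96 at 10 d, so the sign was not the same at the 3 ages. Def1 and abaecin had r = -0.30 (permutation p = 0.229) and rho = -0.33, and -0.48 for both scaled. Abaecin and Def2 had r = 0.57 and rho = 0.60 (permutation p = 0.0138 and 0.0105, adjusted 0.0380), and r = 0.41 and rho = 0.37 with scaled values (permutation p = 0.0876 and 0.137). Hymenoptaecin and Def2 had r = 0.30 and rho = 0.42, and 0.07 and 0.16 scaled. Within the control groups r between abaecin and Def2 was 0.84 and between hymenoptaecin and Def2 0.83, and within the dinotefuran groups 0.81 and 0.54, over 9 libraries each. Within an age, abaecin and Def2 had r = 0.71 at 1 d, -0.41 at 5 d and -0.18 at 10 d, so the positive relation did not hold within every age. For the deviations from group means it was 0.51 (permutation within groups, p = 0.0977).

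**Figure D4:**
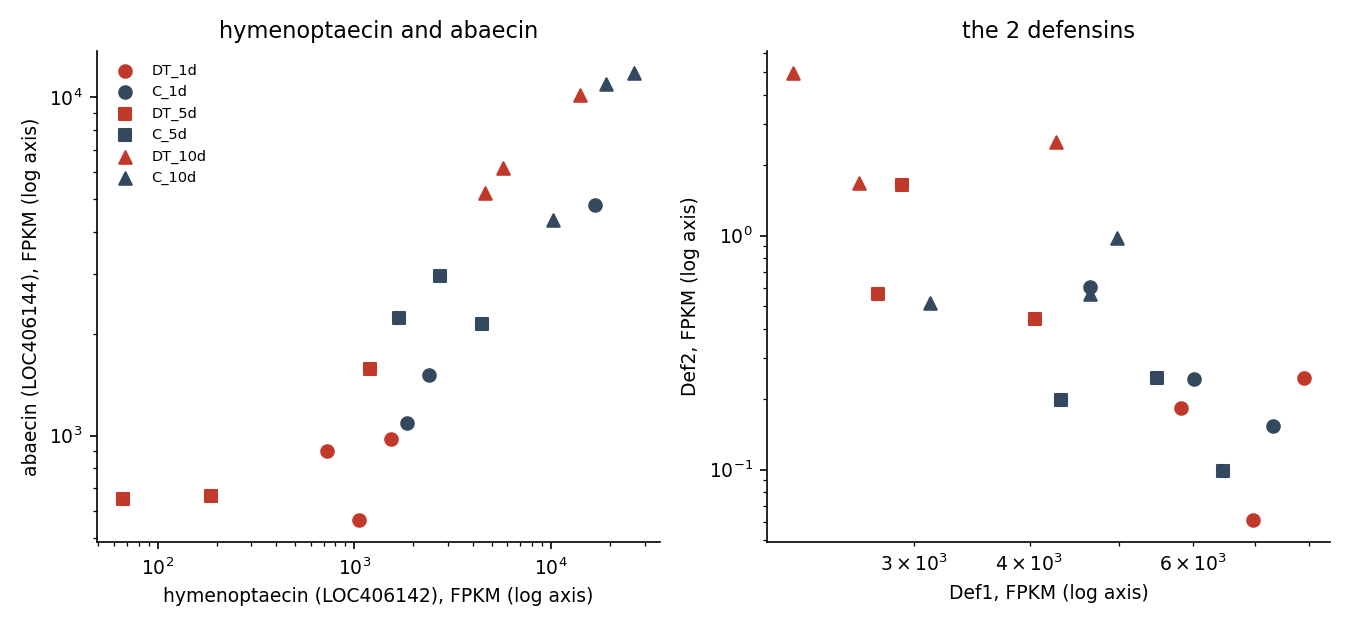
Abaecin against hymenoptaecin (left) and Def2 against Def1 (right) in the 18 libraries, in FPKM on log axes. Colours mark treatment (dinotefuran DT red, control C dark) and symbols mark age. Hymenoptaecin and abaecin are high in the same libraries (r = 0.89), while Def2 tends to be high where Def1 is low (r = -0.78, and -0.52 with scaled values).

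The genes most like each of the 4 in scaled log2 level over the 18 libraries, among 8260 genes that reached 1 FPKM in 3 or more libraries, began with the apidaecin gene Apid1 for both abaecin (r = 0.92) and hymenoptaecin (r = 0.87). Apidaecin is another proline-rich antimicrobial peptide. The next for hymenoptaecin were LOC102656656, abaecin itself, LOC410538 and LOC552247, with r between 0.80 and 0.84, and for abaecin LOC100576097, LOC726818, LOC409862 and LOC410462, with r between 0.85 and 0.88. Def1 was most like LOC102654905, LOC408424, LOC102656186, LOC551958 and LOC100578420 (r between 0.95 and 0.96), and Def2 most like LOC494509, LOC725627, LOC113219343, LOC726912 and LOC102655090 (r between 0.85 and 0.88). None of the 4 genes was among the nearest of a defensin.

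Apid1, on linkage group 16 from 4518604 to 4520315, repeated the single libraries in which hymenoptaecin and abaecin stood out. It had 17.2, 12.8 and 17.4 FPKM in DT_1d and 362, 18.9 and 23.3 FPKM in C_1d. At 5 d it had 5.05, 85.8 and 12.9 FPKM in DT_5d and 40.8, 69.4 and 154 FPKM in C_5d. At 10 d it had 412, 239.6 and 361 FPKM in DT_10d and 612, 257 and 649 FPKM in C_10d. In the deposited values C_1d replicate 1 and DT_5d replicate 2 were the highest libraries of their groups for these 3 peptides and also for Def2, but not for Def1. With scaled values DT_5d replicate 2 was the highest of its group for Def1 as well, at 5299, against 5107 and 3325. In deviations from group means its r was 0.95 with hymenoptaecin and 0.84 with abaecin, against -0.11 with Def1 and 0.56 with Def2. Apid1 rose in DT_10d against DT_1d by a log2 fold change of 4.38 ± 0.93 (limma adjusted p = 0.00158), and 3.12 ± 0.92 scaled (limma adjusted p = 0.0187).

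**Figure D5:**
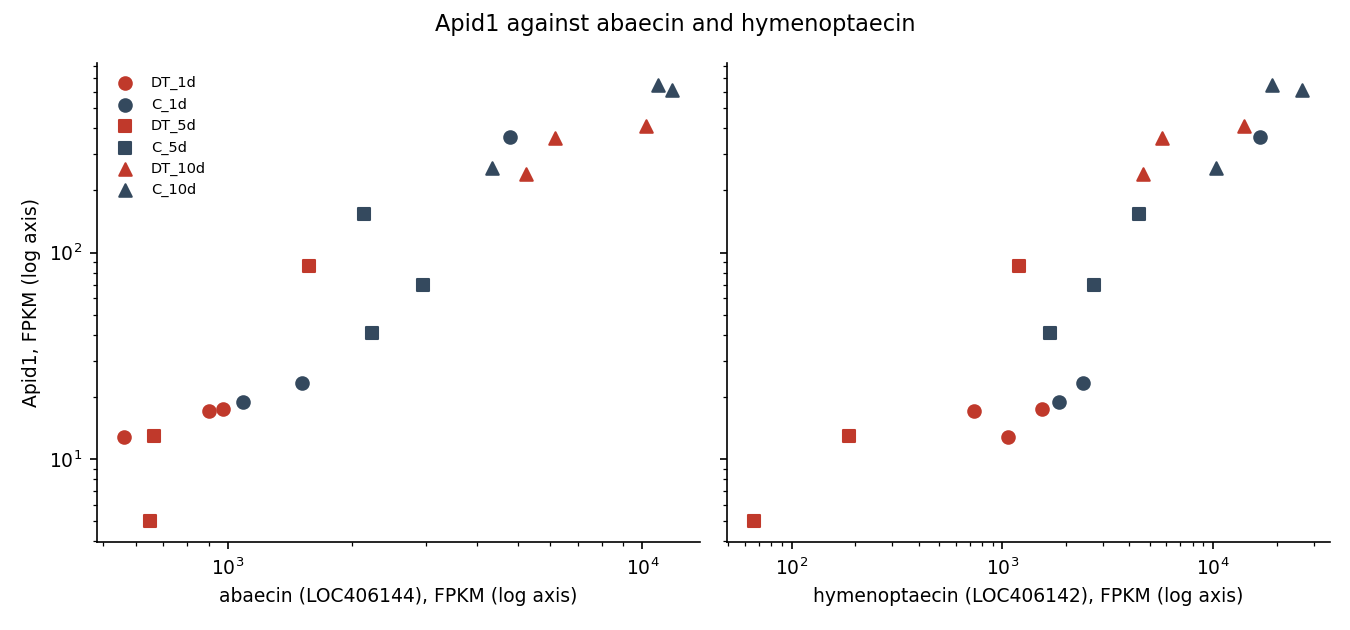
Apid1 against abaecin (left) and hymenoptaecin (right) in the 18 libraries, in FPKM on log axes, with colours for treatment (dinotefuran DT red, control C dark) and symbols for age. C_1d replicate 1, at 362 FPKM of Apid1, lies with the libraries of 10 d and away from the other C_1d libraries, at 18.9 and 23.3 FPKM.

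With Apid1, the list of other immune genes that could be matched by symbol held 9 genes: the recognition proteins Pgrp-s2, PGRP-S3 and B-gluc1, Dl (the NF-kB factor Dorsal), cact1 (Cactus, which holds Dorsal back) and 18-w (a Toll receptor) of the Toll pathway, the adaptor Imd, and the prophenoloxidase PPO, which starts melanin formation. In the comparisons of treatment limma called 0 of 9 in either direction at any age, with deposited or scaled values. An unadjusted p under 0.05 was found for 3 of them at 1 d, 3 at 5 d and 0 at 10 d, and with scaled values for 0, 2 and 2. The median log2 fold change of the 9 in DT_5d against C_5d was -0.64, beside -0.73 over all genes. In DT_10d against DT_1d, 7 of 9 were called higher and none lower with the deposited values, at a median of 1.43 beside 1.20 over all genes, in a comparison in which 54.3% of all features passed and 7197 of 13730 were called higher. With scaled values 2 were called higher (Apid1 and Pgrp-s2) and 2 lower (PGRP-S3 and PPO), where 14.1% of all features passed.

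Pgrp-s2, a short peptidoglycan recognition protein, had 85.3, 30.6 and 68.9 FPKM in DT_10d, against 9.88, 7.55 and 7.67 FPKM in DT_1d, and C_1d replicate 1 again stood apart with 51.1 FPKM, against 8.78 and 9.18 FPKM in the other C_1d libraries. Its scaled log2 fold change in DT_10d against DT_1d was 1.49 ± 0.48 (limma adjusted p = 0.0285). PGRP-S3 had -2.15 ± 0.42 there (limma adjusted p = 0.00174) and PPO -1.76 ± 0.24 (limma adjusted p = 0.000176), both scaled.

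Markers of other tissues also differed between the libraries. The summed FPKM of 9 hypopharyngeal gland markers (5 Mrjp genes, which encode royal jelly proteins, the alpha-glucosidase gene Hbg3 and 3 genes listed by number, all of a gland that lies in the head) was between 117011 and 154703 in DT_1d and between 38539.5 and 133409 in C_1d. At 5 d it was between 101476 and 162569 in DT_5d and between 77064 and 88835 in C_5d, and at 10 d between 13938 and 19362 in DT_10d and between 21035 and 48308 in C_10d. The largest part of the sum was LOC406093, with group means of 78699 FPKM in DT_1d and 11860 FPKM in DT_10d, so the sum mostly follows this gene. The lowest sum at 1 d was that of C_1d replicate 1, the library with the highest abaecin and hymenoptaecin of that age. LOC406093 had 19571 FPKM in it. The markers did not move together in C_1d replicate 1. Mrjp1 had 2363 FPKM, against 25364 and 30577 FPKM in the other C_1d libraries, whereas Hbg3 had 8614 FPKM, against 71.5 and 49.6 FPKM, and LOC406114 had 348 FPKM, against 13.4 and 24.4 FPKM. Nor did they at 10 d, where 4 of the 9 (Mrjp1, Mrjp2, Mrjp3 and Mrjp7) were higher in every DT_10d than in every C_10d library, 1 (Hbg3) was lower and 4 overlapped. The share of all genes without overlap was not counted. By fold change, 17.3% of all genes tested were lower in DT_10d than in C_10d. Mrjp1 was called higher in DT_10d than in C_10d, at a log2 fold change of 4.54 (limma adjusted p = 0.0265), and had 4.23 scaled (limma adjusted p = 0.0936). Over the 18 libraries the scaled log2 gland sum had r = -0.74 with abaecin, -0.64 with hymenoptaecin, 0.85 with Def1 and -0.40 with Def2, given as a description of libraries that share age and treatment. With deposited values r was -0.88, -0.74, 0.53 and -0.74 in the same order. Scaled Def1 itself had r = -0.80 with the log2 scaling factor of the library, and deposited Def1 had -0.27. The part of gland tissue in these levels was not tested.

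The sum of 13 neuron markers was between 87.6 and 99.7 FPKM in DT_10d and between 21.1 and 28.8 FPKM in DT_1d, and none of them was at 0 in any group. These are deposited values, which hold the factor shared by most genes. The largest part was Syt1, with means of 53.5 FPKM in DT_10d and 12.9 FPKM in DT_1d, and of 35.5 and 20.4 scaled. The scaled neuron sum had r = 0.53 with abaecin and -0.81 with Def1, and with deposited values these were 0.78 and -0.34. The 5 fat body markers summed to between 7.77 and 48.0 FPKM, with r = -0.77 for abaecin and 0.85 for Def1, scaled, and -0.78 and 0.60 deposited. The haemocyte list held PPO alone, which was between 20.4 and 26.2 FPKM in DT_10d and between 30.3 and 35.3 FPKM in DT_1d, and the glia list Eaat-2 alone, which was between 11.3 and 53.9 FPKM. The part of these tissues in the levels of the peptide genes was not tested.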

How the data were processed

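RNA-seq values of 18 libraries of pooled honey bee brains were analysed, in 6 groups of 3 taken from the sample labels. Per the study's methods, the authors mapped reads to Amel_HAv3.1 (Hisat2), built transcripts (StringTie) and let Cuffdiff compute FPKM, and they deposited these FPKM values per library. Rows of the same gene hold equal values, so 1 row per gene was used. How Cuffdiff normalized between libraries is not given in the sources used here. The deposited lncRNA values of DT_1d replicate 1 equal those of DT_10d replicate 1 (5002 equal values above 0, and 0 equal gene values) and were left out.

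A search for whole-read steps in low values compared 153 pairs of libraries. At most 2.84% of the genes under an FPKM of 0.2 shared 1 ratio within 0.1%, so the reads behind each value were not recovered. The read totals that the paper lists per library were not used, and precision is given as the spread between libraries.

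Values were tested as log2(FPKM + 0.1) in limma (version 3.58.1, R version 4.3.3), where lmFit took the 6 groups as coefficients and eBayes allowed a trend. Features were genes and lncRNA transcripts that reached 0.1 FPKM in 3 or more libraries, as all 4 genes did. The comparison over all ages had treatment and age as factors. A feature was called at a Benjamini-Hochberg adjusted p under 0.05 with an absolute log2 fold change over 1. Scaled values were divided by median-ratio factors from 9119 genes above 0 in every library. Two-sided exact permutation tests were run on single genes. Exact tests of 3 libraries against 3 cannot go below p = 0.1 and are not printed. The 24 tests between ages within treatment were added after the values were seen, and no correction was made for their number. Correlations of the 6 pairs used 100000 permutations. The limma fit alone was run on simulated data, which held no factor shared by the genes of a library. The scaling, permutation tests and correlations were not checked in this way.

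The genes and lists were chosen with earlier results of these data known, and lists were matched by symbol alone. Named were the 4 genes, the 5 genes most like each by scaled r, the other antimicrobial peptide genes matched (Apid1) and immune list genes past the threshold. Marker lists are given as sums, and single markers were named after their values were seen. Alternatives were other pseudocounts, filters and normalizations, a replicate block, limma without trend, only the libraries of a comparison, genes only, and each library left out. Leaving out C_1d replicate 1 together with scaling was chosen after seeing the data. Promoter and protein sequences were not used here. Other software was Python (3.11.15) with scipy (1.17.1), numpy (2.4.6), pandas (2.3.3) and matplotlib (3.10.9).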

Additional observations from a re-analysis of the deposited data

How the results depend on the processing

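The calls in DT_10d against DT_1d held for all 4 genes with each library left out (4 of 4 called each time). With all libraries, 54.3% of all features passed in that comparison. Hymenoptaecin did not pass there with median-ratio scaling (14.1% of all features passed), nor Def1 with quantile normalization (11.1%). In DT_10d against DT_5d the number called was 3 (42.1% of all features passed), between 2 and 3 with a library left out, and 1 with median-ratio scaling (3.83%). In DT_5d against C_5d it was 0, and became 2 with a filter on a mean FPKM of at least 1, 3 over genes only and between 0 and 2 with a library left out (2 without C_5d replicate 2, 1 without DT_5d replicate 2). With the replicate number as a block (replicate block) 2 genes were called there. The share of all features called, 0.189% in that comparison, became 18.4% (filter), 15.7% (genes only), 18.5% (without C_5d replicate 2), 0.0364% (without DT_5d replicate 2) and 8.91% (block). In DT_10d against C_10d a pseudocount of 1 gave 1 call, Def2, where 0.503% of all features passed. Over all ages the filter on the mean gave 1 call (0.31% of the features fitted passed) and genes only 1 (0.267%). A library left out gave between 0 and 1 there (1 without C_1d replicate 2, where 0.175% passed). In C_10d against C_1d the filter on the mean, quantile normalization and genes only gave 1 call each. There 0.86%, 1.05% and 0.962% of the features fitted passed. A library left out gave between 0 and 2 (2 without C_1d replicate 1, where 12.6% passed). Leaving out C_1d replicate 1 together with scaling, chosen after seeing the data, gave 1 (8.57% passed). The filter on the mean removed Def2, and for the comparison over all ages the libraries of the comparison alone are the full set.

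Values that changed sign, none of them called, were the following. Scaling gave 0.0256 for Def1 in DT_5d against C_5d, 0.0429 for Def1 over all ages, -0.0355 for LOC406144 in DT_5d against DT_1d and -0.28 for LOC406142 in the interaction. Quantile normalization gave 0.49 for LOC406144 in DT_10d against C_10d, 0.0356 for Def1 over all ages, 0.22 for Def1 in C_5d against C_1d and 0.13 for Def1 in C_10d against C_1d. With C_1d replicate 1 left out and scaling, the interaction was -0.93 for LOC406142 and -0.22 for LOC406144. With 1 library left out, LOC406144 ranged from -0.72 to 0.00363 in DT_10d against C_10d and from -0.27 to 0.37 in DT_5d against DT_1d, and Def1 from -0.40 to 0.0686 in DT_10d against DT_5d. In C_5d against C_1d the ranges were -1.21 to 0.37 (LOC406142), -0.16 to 0.91 (LOC406144) and -0.31 to 0.0194 (Def1), and in the interaction -0.27 to 1.31 for LOC406142. The cause of these changes was not tested.

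The correlation of LOC406144 and Def2 was 0.41 scaled, 0.38 without the log, 0.51 for deviations from group means and 0.42 without C_1d replicate 1 and scaled, each with a permutation p over 0.05, and 0.50 to 0.63 with a library left out. LOC406144 and Def1 had -0.48 scaled and 0.16 for the deviations, Def1 and Def2 -0.35 for the deviations, and LOC406142 and Def1 from -0.18 to 0.0655 with a library left out. Libraries with the same number correlated in their deviations between -0.13 and 0.26. Of the dinotefuran libraries only DT_1d replicate 2 and DT_5d replicate 3 matched the control library of their own number best, so the block is given here alone. Depth limits Def2 most, since its level was under 1 FPKM in 14 of 18 libraries.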

Other observations

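Among the 9939 genes of a library, hymenoptaecin held a rank by FPKM between 2 (C_10d replicate 1) and 396 (DT_5d replicate 1), abaecin between 6 and 57, Def1 between 7 and 12 and Def2 between 5880 and 9199. The 4 genes together made up between 0.958% (DT_5d replicate 3) and 11.2% (C_10d replicate 1) of the summed gene FPKM. In C_1d replicate 1 this share was 6.62%, against 2.04% and 2.44% in the other C_1d libraries. The lncRNA value listed for TCONS_00085831 in DT_1d replicate 1, which was left out, is 1.54 FPKM, 6.26 times the value of Def2 in that library.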
